A study of Mus musculus with 8 samples.

Results

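The Wnt ligands, their receptors and their secreted inhibitors were measured in RNA of the whole gastrocnemius, a calf muscle. Members were the rows of the count table whose gene name begins with Wnt, Fzd, Sfrp, Dkk or Rspo and a digit, together with Frzb, Wif1, Lrp5, Lrp6, Axin2, Ror1 and Ror2. Names ending in os were left out. The rule found 48 of the 48709 genes in the table: 19 Wnt ligands, 10 Frizzled receptors, 4 co-receptors, 10 secreted inhibitors, 4 R-spondins and Axin2.

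All mice were of the C57BL/6 strain and 16 weeks old. The control group (4 libraries, A to D) carried a floxed glucocorticoid receptor gene (Nr3c1), and the labels give it no Cre. The other group (4 libraries, E to H) is labelled GR(i)skm-/- and carried the floxed gene with HSA-Cre-ERT2, a tamoxifen-inducible Cre recombinase driven by the human skeletal actin promoter in myofibres. The labels give neither an inducer nor its timing for either group. Skeletal actin is a gene of myofibres, while whole muscle also holds satellite cells, fibroblasts, vessels and nerve.

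Libraries held 36680510 to 52200305 counts. Acta1, Ckm, Myh4, Tnnt3, Ttn and Neb, which define skeletal muscle, together were at 143600 to 196800 CPM in the 8 libraries. CPM is the count of a gene relative to the total of its library, here scaled by TMM, a correction for library composition. In the level of the targeted gene, libraries E and G went against their label. Nr3c1 was at 83.2 to 90.03 CPM in control, at 38.6 in F and 42.8 in H, but at 87.1 in E and 96.7 in G. Its log2 fold change of -0.39 ± 0.31 (SE) passed neither edgeR (adjusted p = 0.452) nor the two-sided exact permutation test (p = 0.371). Fkbp5, a known target gene of the receptor chosen here after its values were seen, was at 36.01 to 57.7 CPM in control, at 6.68 in F and 10.7 in H, and at 32.2 in E and 31.4 in G. All 4 libraries labelled knockout lay below the controls (exact permutation p = 0.0286), though edgeR did not call it (adjusted p = 0.214). Higher and lower refer to libraries by their label, and counts of calls are also given without E and G. That leaves only F and H in the group labelled knockout, and fewer libraries can end calls by themselves.

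Wnt proteins are secreted lipid-modified ligands that bind Frizzled receptors. With the co-receptors Lrp5 or Lrp6 they stabilise beta-catenin, which acts with TCF/LEF factors on genes such as Axin2, and with Ror1 or Ror2 they act on cell polarity and calcium instead. Secreted Frizzled-related proteins (Sfrp genes and Frzb) and Wif1 bind Wnt ligands, Dickkopf proteins (Dkk genes) mostly bind Lrp5 and Lrp6, and R-spondins protect Frizzled receptors from degradation. In skeletal muscle the pathway is known for its part in fibre formation, satellite cell activity and the neuromuscular junction.

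Of the 48 members, 31 passed the filter on low counts (about 10 counts in at least 4 libraries). Wnt3a, Wnt7a, Wnt8a and Dkk4 had no count in any of the 8 libraries, where 3 counts of the 343787837 sequenced would be 0.00873 CPM. The other 13 members below the filter were seen in few reads. Over the 8 libraries, Wnt2 had 68 counts, Wnt2b 64, Fzd3 41, Rspo1 38, Wnt7b 33, Wnt10a 25, Wnt9b 23, Wnt3 22, Rspo2 22, Rspo4 7, Dkk1 4, Wnt1 2 and Wnt8b 1. No comparison was made for these 17 genes.

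A small number of genes made up most of the summed level of the tested Frizzled receptors and of the tested ligands. In CPM per kb of merged exon length, the scale on which levels of different genes compare, the tested members in control were led by Fzd9 at 11.5 ± 1.199, Fzd7 at 11.4 ± 0.690 and Fzd4 at 10.9 ± 1.75 (SD, n = 4). Fzd4 is also the receptor for Norrin in vessels, and Fzd7 is a receptor of satellite cells in mouse. These 3 receptors overlapped one another and made up 90.6% ± 0.103 of the summed level of the tested Frizzled genes in control and 91.3% ± 0.495 in the libraries labelled knockout. Wnt4, a fibre-derived ligand that acts on satellite cells in mouse, was the most abundant ligand at 7.91 ± 1.03, followed by Wnt9a at 4.38 ± 0.657. Together they made up 79.4% ± 1.012 of the summed ligand level in control and 79.9% ± 1.81 in the other group.

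Lrp6 (4.45 ± 0.186 CPM per kb) and Lrp5 (3.45 ± 0.280) made up most of the co-receptor level, with Ror1 at 0.333 ± 0.0525 and Ror2 at 0.135 ± 0.0458. Among secreted inhibitors the order in control was Sfrp5 (3.79 ± 0.479), Frzb (2.23 ± 0.286), Dkk3 (1.96 ± 0.301) and Dkk2 (1.30 ± 0.468), with Wif1, Sfrp4, Sfrp2 and Sfrp1 at 0.656 to 0.868. Rspo3 was the single R-spondin above the filter, at 0.263 ± 0.117. Of the 30 pairs of neighbours in this order of 31 genes, 26 overlapped in their 4 control libraries. The ranges came apart below Fzd4, Wnt4, Lrp5 and Wnt5b. Dkk3 ranked 10 of 31 in control and 4 of 31 in the libraries labelled knockout, where its level was 8.47 ± 3.49 CPM per kb.

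**Figure D1:**
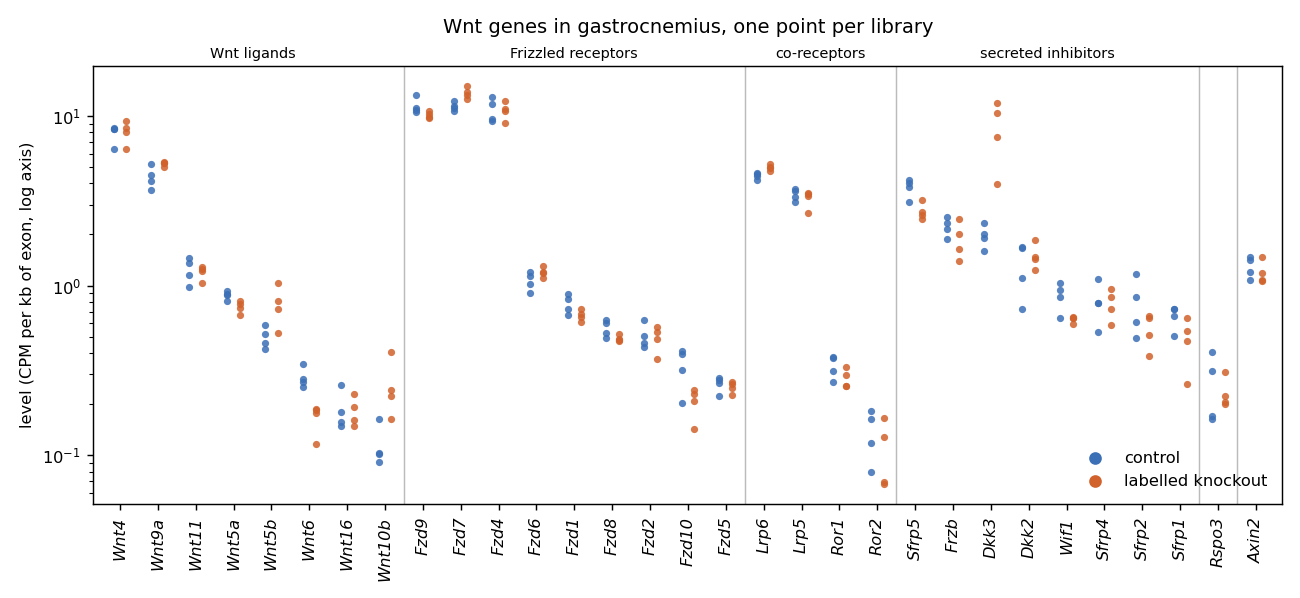
Level of each of the 31 tested Wnt genes in CPM per kb of exon (log axis), 1 point per library, ordered by role and by the control mean. Fzd9, Fzd7, Fzd4 and Wnt4 lead in control, and the 4 Dkk3 points of the libraries labelled knockout lie above its 4 control points.

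Between the groups, 4 of the 31 tested members passed the edgeR quasi-likelihood test at an adjusted p under 0.05: Dkk3, Wnt10b and Fzd7 rose and Sfrp5 fell in the libraries labelled knockout. That is 12.9% of the tested members, beside 8.45% of all 14712 genes tested (4.04% higher and 4.41% lower). An unadjusted p under 0.05 was seen for 12 members (38.7%, beside 27.1% of all genes), and 6 members had no overlap between the groups in CPM (19.4%, beside 16.7%). The median log2 fold change of the tested members was -0.09, and -0.01 over all genes tested; by library size alone it was -0.01 and the median of all genes moved up by 0.07. A log2 fold change of at least 1 in size was seen for 2 members, Dkk3 and Wnt10b (2.41% of all genes tested). Without libraries E and G, Dkk3 alone was called, beside 226 of all 15183 genes then tested (1.49%).

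**Figure D2:**
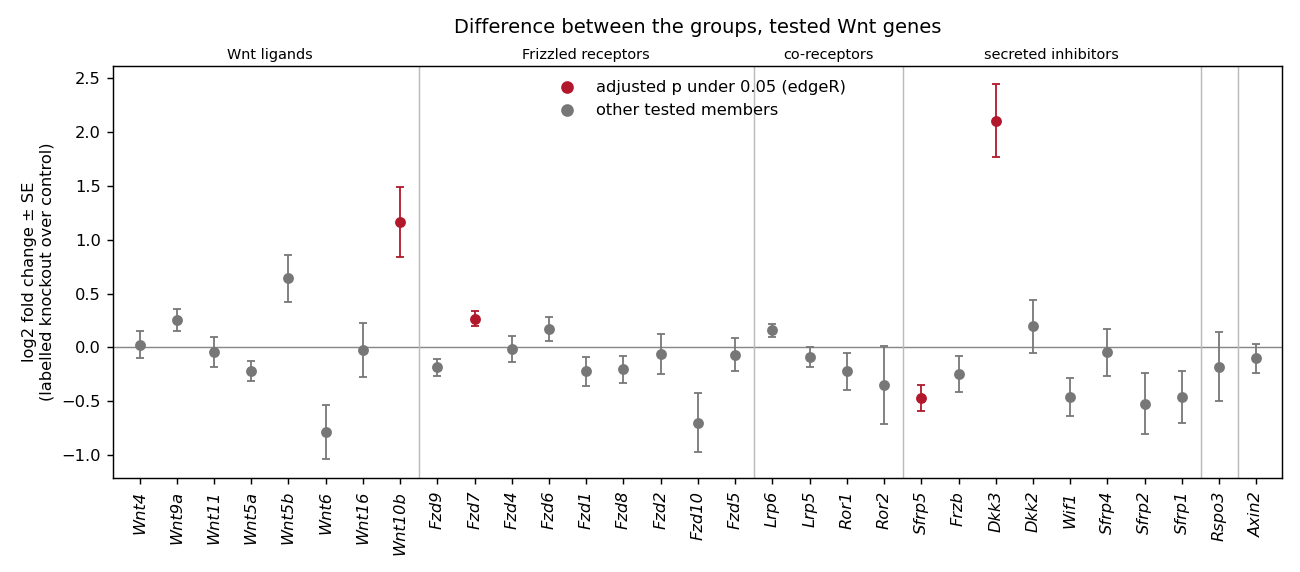
Log2 fold change (libraries labelled knockout over control) with its SE for the 31 tested members by role, called members in red. Dkk3 stands at 2.10 and Wnt10b at 1.16, while the other 29 lie between -0.79 and 0.64.

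Dkk3 had the largest fold change of the 31. This secreted protein is a divergent Dickkopf whose action on Wnt receptors is less settled than that of Dkk1, and the gene (ENSMUSG00000030772) lies on chromosome 7, 112116017 to 112159057, minus strand of mm10. It was at 6.40, 7.84, 5.39 and 6.73 CPM in the controls (A to D), and at 35, 13.4, 40.03 and 25.3 CPM in E to H. The groups did not overlap, the highest values were in E and G, where Nr3c1 was at the control level, and the lowest of the labelled knockouts was F. The means were 6.59 ± 1.012 and 28.4 ± 11.7 CPM (SD, n = 4 in both groups), which gave a log2 fold change of 2.10 ± 0.33 (SE, edgeR adjusted p = 0.0134, two-sided exact permutation p = 0.0286, the smallest that 70 arrangements allow). It passed in each of 17 alternatives, with 1.55 (adjusted p = 0.0306) without E and G.

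Dkk3 took 15.9% ± 0.548 of the summed inhibitor level per kb in control and 47.9% ± 11.01 in the libraries labelled knockout, where it passed Sfrp5 as the most abundant. Its relative Dkk2, which binds Lrp5 and Lrp6, was at 4.81 ± 1.73 and 5.53 ± 0.941 CPM and was not called (log2 fold change 0.20, edgeR adjusted p = 0.647). In a bulk sample, more cells of a type and more RNA per cell cannot be told apart. B cell markers ranged from 95.7 to 201 CPM in summed level in control and from 108 to 332 in the other group, lowest there in F like Dkk3, with none of 6 called or at an unadjusted p under 0.05, and none at 0. Mast cell markers did not overlap (6.20 to 11.8 against 12.9 to 18.7 CPM, 4 of 5 tested higher), and macrophage markers did (38.2 to 64.5 against 56.3 to 81.0, 2 of 7 higher). The part of these cells in the rise of Dkk3 was not tested.

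Sfrp5, a secreted Frizzled-related protein known as an antagonist of Wnt5a in fat, was the most abundant inhibitor in control and the single member called lower. The gene (ENSMUSG00000018822) lies on chromosome 19, 42197971 to 42202252, minus strand. It was at 7.998, 7.64, 5.92 and 7.24 CPM in A to D and at 6.07, 5.18, 4.93 and 4.67 CPM in E to H. The groups overlapped, since control library C lay below E. The means were 7.20 ± 0.909 and 5.21 ± 0.606 CPM. The log2 fold change was -0.47 ± 0.12, with an adjusted p of 0.0396 by edgeR and an exact permutation p of 0.0571. The call ended without A, B, D, F, G or H (highest adjusted p = 0.119), without E and G (-0.55, adjusted p = 0.103), by library size alone (adjusted p = 0.0879) and with a trend on gene GC content removed from each library (-0.31, adjusted p = 0.156).

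The other tested inhibitors lay mostly below control without passing the test. Wif1, which binds Wnt ligands, was at 2.08, 2.29, 1.55 and 2.51 CPM in A to D and at 1.56, 1.44, 1.57 and 1.58 CPM in E to H (log2 fold change -0.46, edgeR adjusted p = 0.121). The values of E to H were close together, and control library C was among them. Among the other secreted Frizzled-related genes, means in control and the other group were 2.87 and 2.10 CPM for Sfrp1, 1.69 and 1.18 for Sfrp2, 7.23 and 6.08 for Frzb and 3.35 and 3.26 for Sfrp4. Their log2 fold changes were -0.46, -0.52, -0.25 and -0.05 (edgeR adjusted p = 0.249 to 0.915). Of the 8 tested inhibitors, 6 had a negative log2 fold change and 2 a positive one, with 1 called in each direction. Beside these, all 8 Schwann cell markers fell, with a summed level of 136 to 245 CPM in control and 43.3 to 65.2 in the other group. In smooth muscle and pericytes 4 of 7 markers fell (566 to 679 against 491 to 561 CPM) and in tenocytes 2 of 7 fell (272 to 433 against 197 to 255), again with no overlap and no marker at 0. The smooth muscle and pericyte sum was mostly Rgs5, which was not called (means 355 and 347 CPM, log2 fold change -0.03). The 4 called markers in it had log2 fold changes from -0.93 (Myh11) to -0.34 (Notch3). Fibroblast and fibro-adipogenic progenitor markers overlapped (1680 to 2243 against 1887 to 2342 CPM, 3 of 10 higher and 1 lower), as did satellite cell markers (46.8 to 59.5 against 43.0 to 50.4 CPM, none of 6 called and 1 at an unadjusted p under 0.05). The satellite cell sum was mostly Cdh15 and Myod1. Cdh15 had means of 24.8 and 18.8 CPM with no overlap (log2 fold change -0.40, edgeR adjusted p = 0.0536). Of the 6 markers, 3 had a positive log2 fold change and 3 a negative one. The part of these cells in the inhibitors' values was not tested.

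Among receptors, Fzd7 rose by a small amount. The gene (ENSMUSG00000041075) lies on chromosome 1, 59482424 to 59486955, plus strand. It was at 48.4, 50.2, 52.1 and 55.7 CPM in A to D and at 60.3, 63.1, 68.4 and 57.0 CPM in E to H. The groups did not overlap, with H just above D. The means were 51.6 ± 3.13 and 62.2 ± 4.85 CPM. The log2 fold change was 0.27 ± 0.07, with an adjusted p of 0.0461 by edgeR and an exact permutation p of 0.0286. The call ended without A, B, C, E, F or G (highest adjusted p = 0.14) and without E and G (0.22, adjusted p = 0.227), and stayed under the other 10 alternatives.

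Of the 9 tested Frizzled genes the other 8 were not called. Fzd9 was at 24.9, 30.4, 25.7 and 24.4 CPM in A to D and at 22.2, 23.5, 22.6 and 24.4 CPM in E to H (log2 fold change -0.18, edgeR adjusted p = 0.164). Library H lay just above D, so the groups overlapped. Fzd10 was at 1.04, 1.28, 1.34 and 0.660 CPM in control and at 0.674, 0.740, 0.786 and 0.465 CPM in the libraries labelled knockout (-0.70, adjusted p = 0.131), with control library D among the latter. Fzd4 had means of 73.0 ± 11.8 and 72.3 ± 8.78 CPM (-0.01 ± 0.12), Fzd6 of 5.13 ± 0.632 and 5.78 ± 0.378, Fzd1 of 3.27 ± 0.423 and 2.80 ± 0.203, and Fzd8 of 3.35 ± 0.392 and 2.91 ± 0.121. Fzd2 and Fzd5, at 1.74 to 1.86 CPM, had log2 fold changes of -0.06 and -0.07. Endothelial markers, a check for Fzd4, did not overlap (387 to 416 CPM in control, 363 to 385 in the other group, 1 of 8 higher and 2 lower, none at 0), and their part in the Fzd4 values was not tested.

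The co-receptors were not called. Lrp6 was at 57.4, 63.4, 61.8 and 60.9 CPM in A to D and at 67.9, 64.8, 68.0 and 71.4 CPM in E to H. The groups did not overlap, though the difference was small (log2 fold change 0.16 ± 0.06, edgeR adjusted p = 0.114). Lrp5 had means of 33.6 ± 2.72 and 31.6 ± 3.71 CPM (-0.09 ± 0.09). Ror1 and Ror2, tyrosine kinase receptors for Wnt5a, were at 1.92 ± 0.302 and 0.574 ± 0.194 CPM in control and at 1.65 ± 0.212 and 0.455 ± 0.201 CPM in the other group.

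Wnt10b, a beta-catenin ligand known for holding back fat cell formation, was the single ligand called, at a low level and on the threshold. The gene (ENSMUSG00000022996) lies on chromosome 15, 98770712 to 98778150, minus strand. Its counts were 11, 15, 21 and 16 in A to D and 53, 39, 32 and 30 in E to H, or 0.309, 0.344, 0.552 and 0.352 CPM against 1.37, 0.824, 0.762 and 0.559 CPM. The groups did not overlap, and H lay just above C. The log2 fold change was 1.16 ± 0.32, with an adjusted p of 0.0497 by edgeR and an exact permutation p of 0.0286. The call ended without any 1 library but H (highest adjusted p = 0.124), without E and G (0.82, adjusted p = 0.253), by upper-quartile scaling (adjusted p = 0.0505), by limma-voom (0.0531) and with the GC trend removed (1.23, 0.053).

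**Figure D3:**
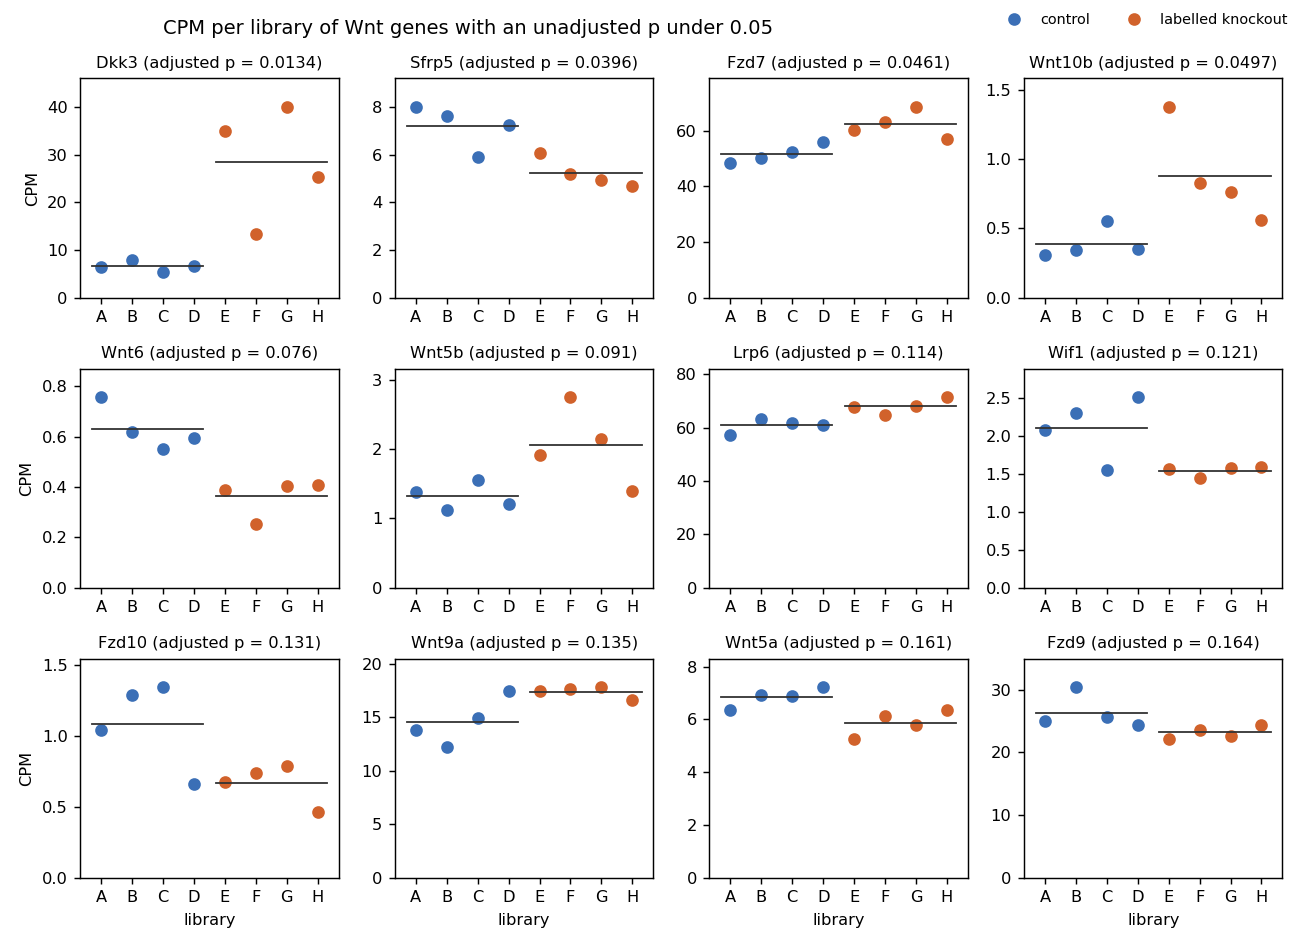
CPM in each library (A to D control, E to H labelled knockout) of the 12 members with an unadjusted p under 0.05, each panel from 0, with the group mean as a line. Dkk3, Fzd7, Wnt10b, Wnt6, Lrp6 and Wnt5a have no overlap between the groups.

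The other ligands were not called, in either direction. Wnt6 was at 0.758, 0.619, 0.552 and 0.594 CPM in A to D and at 0.389, 0.254, 0.405 and 0.410 CPM in E to H, with no overlap (log2 fold change -0.79 ± 0.25, edgeR adjusted p = 0.076). Wnt5b, like Wnt5a a ligand acting mainly without beta-catenin, was at 1.38, 1.12, 1.55 and 1.21 CPM in control and at 1.92, 2.75, 2.14 and 1.40 CPM in E to H (0.64 ± 0.22, adjusted p = 0.091). Library H lay among the control values. Wnt5a was at 6.37, 6.93, 6.89 and 7.22 CPM in control and at 5.24, 6.11, 5.79 and 6.37 CPM in E to H (-0.22 ± 0.09, adjusted p = 0.161), where A and H were level to 3 digits. Wnt9a was at 13.8, 12.2, 14.9 and 17.4 CPM in A to D and at 17.5, 17.7, 17.8 and 16.6 CPM in E to H (0.25 ± 0.10, adjusted p = 0.135). It was called higher in a pair of alternatives, without D (0.35, adjusted p = 0.0427) and with the GC trend removed (0.38, adjusted p = 0.0442).

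The most abundant ligand did not differ beyond the spread. Wnt4 was at 35.2, 35.1, 35.6 and 26.7 CPM in A to D and at 39.0, 33.8, 35.5 and 26.8 CPM in E to H, and each group held a single low library, D and H (log2 fold change 0.03 ± 0.12, edgeR adjusted p = 0.913). Wnt11, a ligand of the calcium and polarity branch, had means of 5.12 ± 0.884 and 4.96 ± 0.448 CPM. Wnt16 had means of 0.809 ± 0.221 and 0.794 ± 0.156 CPM. The log2 fold change was -0.04 ± 0.14 for Wnt11 and -0.02 ± 0.25 for Wnt16.

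Rspo3 was at 0.505, 0.963, 0.526 and 1.25 CPM in A to D and at 0.622, 0.634, 0.953 and 0.689 CPM in E to H. All of the latter lay within the control range (log2 fold change -0.18 ± 0.32, edgeR adjusted p = 0.753). Axin2, both a target and a feedback inhibitor of beta-catenin signalling, was at 7.77, 5.92, 8.07 and 6.62 CPM in A to D and at 6.51, 8.16, 5.91 and 5.87 CPM in E to H. The groups overlapped throughout (-0.10 ± 0.14, edgeR adjusted p = 0.672), and the sign turned to 0.01 with the GC trend removed. Exons of Axin2, Fzd5, Fzd6, Rspo3, Sfrp2, Wnt11, Wnt5a and Wnt7b share 152 to 1233 bases with a gene on the other strand. Without strand in the counting, reads of such partners cannot be told apart.

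**Figure D4:**
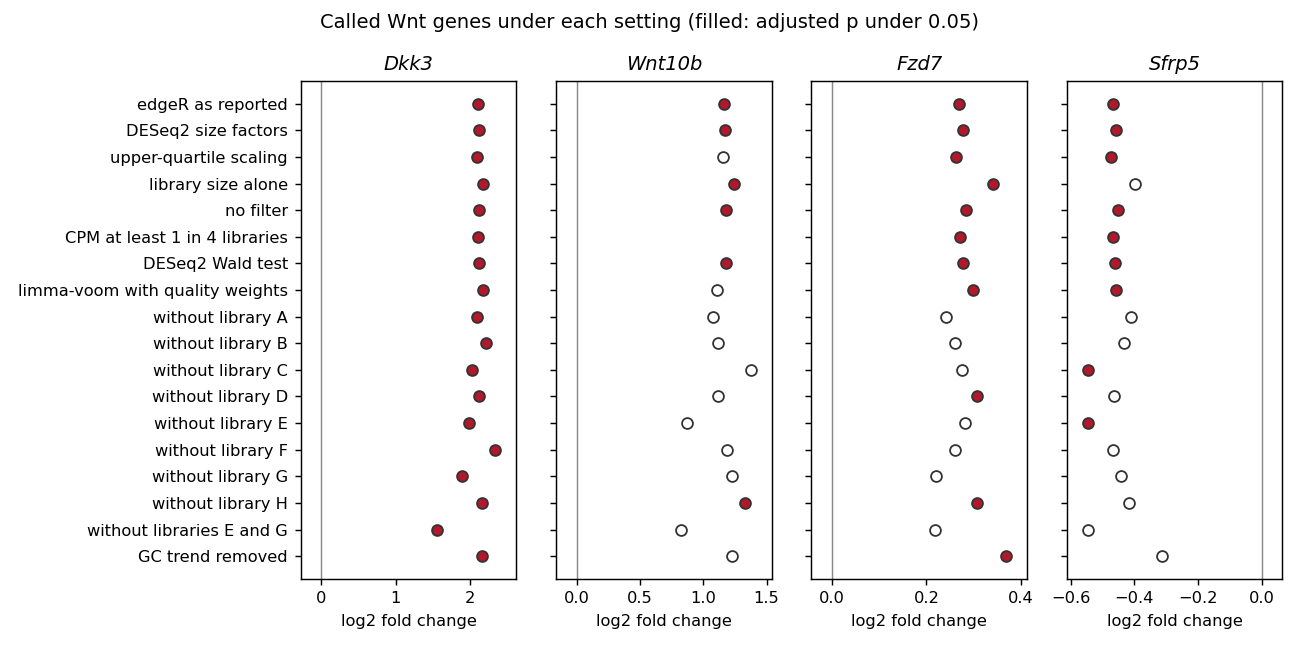
Log2 fold change of the 4 called members under each scaling, filter, tool and left-out library, filled where the adjusted p was under 0.05. Dkk3 is filled in every row, from 1.55 to 2.34, and the other genes keep their sign but not their call.

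Promoters of called members are shown because the targeted gene encodes a DNA-binding receptor. RefSeq start sites on GRCm38.p6 gave 35 promoter windows for 32 of the 48 members, among them Wnt10b, Fzd7 and Sfrp5 but not Dkk3. The 250 bases before the start are printed 5′ to 3′ on the gene's strand, with capitals for the motifs GGGCGG (GC box) and CCAAT on either strand (a pair of GC boxes in Fzd7 overlaps).
Wnt10b, chr15:98778151-98778400, minus strand: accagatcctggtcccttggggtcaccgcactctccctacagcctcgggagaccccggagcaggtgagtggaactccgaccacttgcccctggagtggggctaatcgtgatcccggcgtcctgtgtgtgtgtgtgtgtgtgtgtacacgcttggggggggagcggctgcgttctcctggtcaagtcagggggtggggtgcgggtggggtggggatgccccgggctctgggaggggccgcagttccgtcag
Fzd7, chr1:59481897-59482146, plus strand: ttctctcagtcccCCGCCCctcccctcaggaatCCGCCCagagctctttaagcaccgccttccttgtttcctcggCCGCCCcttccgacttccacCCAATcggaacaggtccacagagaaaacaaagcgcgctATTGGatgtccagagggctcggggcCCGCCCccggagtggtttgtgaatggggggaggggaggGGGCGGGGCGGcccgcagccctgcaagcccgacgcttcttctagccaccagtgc
Sfrp5, chr19:42202253-42202502, minus strand: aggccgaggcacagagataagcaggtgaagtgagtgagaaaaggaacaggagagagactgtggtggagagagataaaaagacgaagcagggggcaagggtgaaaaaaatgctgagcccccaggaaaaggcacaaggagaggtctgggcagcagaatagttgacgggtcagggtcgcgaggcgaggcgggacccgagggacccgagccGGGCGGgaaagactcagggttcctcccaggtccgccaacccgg
The Fzd7 window ends at 59482146, short of the gene start given above (59482424), while the Wnt10b and Sfrp5 windows border their genes. The Fzd7 window holds 6 GC boxes and 2 CCAAT boxes, that of Sfrp5 1 GC box and that of Wnt10b neither. None of the 3, and none of the 35 member windows, holds the palindromic glucocorticoid response element (both strands), which 0.387% of all 32851 promoter windows of this length hold. The receptor's hexamer AGAACA is in 11.4% of member windows (Axin2, Dkk2, Wnt5b and Wnt8b) and 16.1% of all windows. The TCF/LEF motif CTTTGAT is in 5.71% (Wnt11 and Wnt5b) and 3.21%. The GC box is in 74.3% and 32.7%, and the median GC content is 68.0% and 52.4%, so member promoters are richer in GC. A missing match says only that these letters are not in the window.

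The other genes of the pathway, from 6 lists, showed few calls in both directions. Counted once and without members, 108 of 118 genes passed the filter, of which 5 rose and 7 fell (11.1%, beside 8.45% of all genes), with a median log2 fold change of 0.02. Without libraries E and G, 1 rose and 1 fell, where 1.49% of all genes tested were called. The largest change was that of Wisp1 (Ccn4), a secreted matrix protein and beta-catenin target, at 0.674, 1.61, 1.05 and 1.52 CPM in A to D and at 0.337, 0.465, 0.357 and 0.540 CPM in E to H. The groups did not overlap (log2 fold change -1.50 ± 0.31, edgeR adjusted p = 0.0161). Nkd1, a feedback inhibitor that binds Dishevelled, fell from 1.68 ± 0.236 to 0.940 ± 0.179 CPM (-0.84 ± 0.20). These were the called genes of 15 tested feedback and target genes (13.3%, beside 8.45% of all genes), which had a median of -0.02. The sign of this median turned without B (0.13), E (0.02) or G (0.05), by library size alone (0.04) and with the GC trend removed (0.01).

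Dvl3, a Dishevelled protein that relays the signal from Frizzled receptors, was at 21.5, 18.8, 20.8 and 19.1 CPM in A to D and at 14.7, 13.5, 14.1 and 12.8 CPM in E to H. All 4 libraries labelled knockout lay below all controls (log2 fold change -0.54 ± 0.07, edgeR adjusted p = 0.003), and it passed in each of 17 alternatives. In the same list of 24 tested destruction complex and Dishevelled genes, Tnks2, a tankyrase that marks Axin for degradation, rose from 194 ± 3.80 to 231.9 ± 16.45 CPM (0.26). Dvl3 and Tnks2 were the called genes of this list (8.33%, beside 8.45% of all genes). The list's median was 0.04, and -0.0032 without F. Among 11 tested genes of receptor turnover, the R-spondin receptor gene Lgr4 rose from 33.1 ± 1.198 to 40.4 ± 4.04 CPM and Dact1, which binds Dishevelled, from 3.08 ± 0.0949 to 4.16 ± 0.329 CPM, with a median of 0.17. That median was 0.08 without H, 0.10 without F, 0.11 without C, 0.26 without B and 0.04 with the GC trend removed. Lgr4 and Dact1 were the called genes of this list (18.2%, beside 8.45% of all genes).

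Of 31 tested genes of the polarity and calcium branch, 2 rose and 4 fell (19.4%, beside 8.45% of all genes), with a median log2 fold change of 0.03. Prickle3, a polarity protein, was at 17.3, 22.7, 16.9 and 19.96 CPM in A to D and at 12.8, 13.2, 12.2 and 12.9 CPM in E to H. The groups did not overlap (-0.59 ± 0.10, edgeR adjusted p = 0.00716). The kinase gene Rock2 rose from 122 ± 21.6 to 190.5 ± 33.8 CPM and Nfatc3, a calcium-responsive transcription factor, from 42.4 ± 0.910 to 50.3 ± 1.55 CPM. The phospholipase genes Plcb1 and Plcb4 fell by 0.65 and 0.42 and the calcium-dependent kinase gene Camk2a by 0.25 on the log2 scale. No gene was called by edgeR among 13 of secretion and extracellular modifiers (8 at an unadjusted p under 0.05) or 20 of beta-catenin transcription (4). Of all genes tested, 27.1% had an unadjusted p under 0.05 and 8.45% were called. In the first, limma-voom called 1 higher and 1 lower and DESeq2 0, and in the second limma-voom called 0 and DESeq2 1 lower. The median of the first was -0.14, but -0.04 without B and -0.03 with the GC trend removed, and that of the second was -0.09, or -0.10 to -0.02 with 1 library left out (nearest 0 without D, then B, C and H). The smallest adjusted p was that of Reck (0.1) and Cthrc1 (0.103) in the first and Sox7 (0.111) and Pygo1 (0.118) in the second.

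Most of these calls ended when 1 of several libraries was left out, while the fold changes kept their sign. With 1 library left out the log2 fold change was 0.24 to 0.33 for Lgr4, 0.22 to 0.29 for Tnks2, -0.28 to -0.22 for Camk2a and 0.38 to 0.46 for Dact1. Calls ended for Lgr4 without A, C, D, F, G or H (highest adjusted p = 0.137), Tnks2 without A, C, D, F, G or H (0.127), Rock2 without A, C, D, F, G or H (0.0843) and Camk2a without A, C, D, F, G or H (0.0926). Calls also ended for Dact1 without any 1 library but B (0.0881), Plcb1 without B, C, D, F, G or H (0.126), Nfatc3 without A, C, D, G or H (0.0848), Nkd1 without A, D, G or H (0.0942), Plcb4 without C, D, F or G (0.0638) and Wisp1 without G (0.062). Without E and G those of Dvl3 and Rock2 stayed, and the highest adjusted p among the other 10 was 0.188 (Dact1). With the GC trend removed, calls ended for Tnks2 (edgeR adjusted p = 0.161), Camk2a (0.144), Lgr4 (0.081), Nfatc3 (0.0607) and Nkd1 (0.0558). By library size alone they ended for Camk2a, Plcb1 and Plcb4. With no filter they ended for Camk2a, Rock2 and Dact1.

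**Figure D5:**
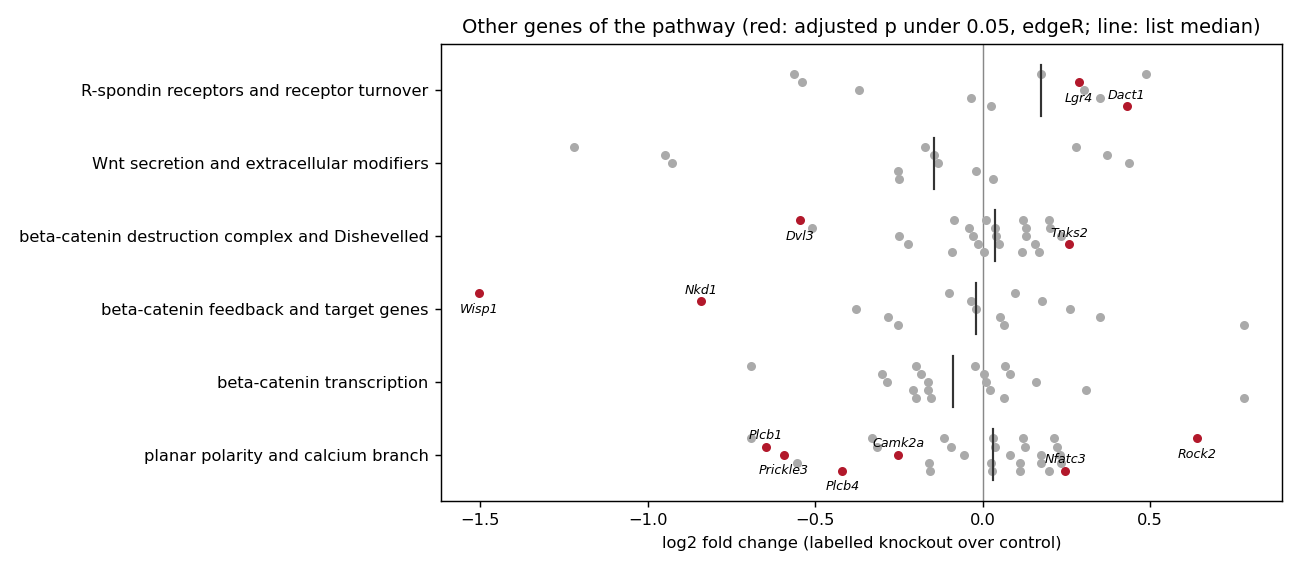
Log2 fold change (libraries labelled knockout over control) of the tested genes in 6 lists of the Wnt pathway, 1 point per gene, called genes in red and named, with the list median as a line. The medians lie between -0.14 and 0.17, or between -0.03 and 0.06 with the GC trend removed, and Wisp1 lies lowest at -1.50.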

How the data were processed

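RNA from gastrocnemius was sequenced in 8 libraries (4 control, 4 labelled knockout), as stranded poly(A) libraries per the labels. The table the authors deposited holds whole-number read counts for each gene. Reads were aligned to mm10 with TopHat version 2 and counted with HOMER, per the series' design text. Neither the annotation release nor strand use in counting is given in these sources.

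Columns were assigned to groups by name. They were lettered A to H in table order, and their replicate numbers are unknown. Whether each library is its own mouse is not stated, and p-values then measure only spread among libraries. No library was a copy of another in its group, where chi-square per degree of freedom was at least 13.1. Pairs across groups were not compared.

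Genes passing edgeR's filterByExpr (14712) were scaled by TMM and tested by robust quasi-likelihood in edgeR 4.0.16 (R 4.3.3), with Benjamini-Hochberg adjustment over all of them and a threshold of 0.05. SE is the absolute log2 fold change over the root of F. CPM was computed from the counts with TMM-scaled library sizes. Exact permutation tests were two-sided over 70 arrangements of the libraries. Exon lengths, coordinates and GC content came from GENCODE M21. The fit was tested on simulated data.

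Alternatives were scaling by upper quartile, by the size factors of DESeq2 or by library size alone. Further ones were no filter, a filter at 1 CPM in 4 or more libraries and each library left out. The DESeq2 1.42.0 Wald test and limma-voom with quality weights per library (limma 3.58.1) were also run. Leaving out E and G, and removing each library's GC trend (lowess, span 0.3), were added after seeing the data. Named members are those called, with an unadjusted p under 0.05, without overlap between groups, or most abundant in their role, and Axin2. Named pathway genes are those called, or the 2 smallest p-values of a list. Members and lists were chosen with earlier results of these data known.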

Additional observations from a re-analysis of the deposited data

Results flagged for a closer look

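Among 64 groups of 4 libraries (31 tested members and Nr3c1, in each group), 3 held a single library set apart from its group by more than Dixon's 95% critical value. Chance flags about 1 in 20 groups. Wnt4 was at 26.7 CPM in control library D, where the other controls were at 35.1 to 35.6. Lrp5 was at 26.1 CPM in library F, where the others labelled knockout were at 32.8 to 34.0. Wnt6 was at 0.254 CPM in library F, where the others labelled knockout were at 0.389 to 0.410.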

How the results depend on the processing

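Among the 31 tested members, the 3 called higher and 1 called lower became 1 and 0 without libraries E and G, and the lower call became 0 by library size alone and with the GC trend removed. Leaving out 1 library gave 1 to 3 higher and 0 to 1 lower. Among pathway genes, the 5 higher and 7 lower became 1 and 1 without E and G, 8 higher by limma-voom, 3 higher with the GC trend removed and 4 lower by library size alone. Leaving out 1 library gave 0 to 9 higher and 2 to 8 lower. The cause of these changes was not tested. Nr3c1 passed without E and G (log2 fold change -1.09, edgeR adjusted p = 0.00162). Those libraries were left out for their Nr3c1 level, so that pass is no test of Nr3c1. Nr3c1 passed under no other alternative (-0.63 to -0.20 with 1 library left out). Axin2 changed sign with the GC trend removed (0.013). Over all genes, calls fell from 1243 to 226 without E and G and to 683 with the GC trend removed, and 69.8% of calls were higher by library size alone, against 47.8% by TMM. Without E and G only F and H were set against the controls. The part of the smaller number of libraries in that drop was not tested. No paired analysis was possible because the columns carry no replicate number found in the labels. Wnt10b, Wnt6 and Fzd10 were not tested under the filter at 1 CPM. Depth limits members such as Wnt10b, with 11 to 53 counts per library.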

Other observations

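Several Wnt genes lie next to one another. On chromosome 11, Wnt9a had 2384 counts in control and 3150 in the libraries labelled knockout, while Wnt3a, 16.2 kb away, had none. On chromosome 15, Wnt10b had 63 and 154 counts, and Wnt1, 11.7 kb away, had 2 and 0. On chromosome 1, Wnt6 had 102 and 66 counts and Wnt10a, 6.19 kb away on the same strand, had 18 and 7. On chromosome 11, Wnt9b (13 and 10 counts) and Wnt3 (7 and 15 counts), 24.3 kb apart, were both below the filter.

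Tested genes within 500 kb of the called members were mostly not called by edgeR, which called 8.45% of all genes tested. None of 5 genes near Dkk3 was called (log2 fold changes -0.30 to 0.28), and none of 21 near Sfrp5. Near Fzd7, 1 of 10 was called, Bmpr2, a receptor for bone morphogenetic proteins, which rose from 73.4 ± 6.94 to 104 ± 18.1 CPM. Near Wnt10b, 2 of 25 were called, both lower. The Schwann cell ligand gene Dhh was at 1.29, 2.11, 1.34 and 1.87 CPM in A to D and at 0.596, 0.698, 0.691 and 0.708 CPM in E to H (log2 fold change -1.29, edgeR adjusted p = 0.00848), the opposite direction to Wnt10b. These neighbours were chosen after their values were seen.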
